A study of Rattus norvegicus with 12 samples.

Results

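Abcg1 and the genes of cholesterol export around it are described here in rat heart muscle cells exposed to corticosteroids. The set held 6 genes, Abcg1, Abca1, Nr1h3, Nr1h2, Srebf1 and Apoe, and every probe set that the array annotation assigned to any of them was kept. That gave 14 probe sets of 31042 on the array without controls, and 7 of the 14 were bright enough to be tested among 18625. The genes had been selected on measured values. These were taken to be the difference of each array with RU486 from its partner array without it. Those differences are therefore given below as a description with no test. The differences of the ligands from vehicle and from each other were tested. They are not independent of the selection, because they share the experiment 2 arrays without RU486 with those differences. The values of experiment 1, whose arrays the differences did not use, are given separately. They are not independent support either, because the genes were chosen with earlier results of these data known.

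The cells were primary cultures of ventricular cardiomyocytes from Wistar rats aged 1 day, separated from cardiac fibroblasts by how readily they attach to a dish. All cultures stood for 24 h in OPTI-MEM and were then exposed for 3 h to ethanol as the vehicle or to 1 of 3 steroids, named CVZ (cortivazol), COR (corticosterone) and ALD (aldosterone). CVZ is a synthetic glucocorticoid with a phenylpyrazole group fused to the steroid, COR is the main glucocorticoid of the rat, and ALD is the mineralocorticoid hormone, which carries an aldehyde where COR has a methyl group. In experiment 1 there was 1 array for each of these 4 treatments. In experiment 2 the same 4 treatments were run again, and 4 further cultures received RU486 at 10 µM before vehicle, CVZ, COR or ALD. RU486 blocks the glucocorticoid receptor. The ligand doses are not given in the sources used here, so a difference between ligands compares these treatments and not equal doses. Each treatment without RU486 therefore had 2 arrays and each with RU486 had 1. The sources do not say whether both experiments used separate cell preparations, so a p-value measures only the spread between these arrays, which may be technical.

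Cells shed surplus cholesterol through transporters of the ATP-binding cassette family: ABCA1 loads it onto lipid-poor apolipoproteins, and ABCG1 passes it to lipoprotein particles that already carry lipid. Apolipoprotein E is one of the acceptors. The genes are switched on by the liver X receptors, LXRα (Nr1h3) and LXRβ (Nr1h2), nuclear receptors that sense oxidised cholesterol, and the same receptors activate Srebf1, whose product SREBP-1 drives fatty acid synthesis.

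The values were signals on a linear scale, in units of the median signal of each array. Differences are between log2 values of the signal plus a small constant, the pseudocount of 0.0696, and a probe set was called at an adjusted p below 0.05 with limma. Arrays have no read depth, and their number limits the precision. The treatments were visible in Fkbp5, a glucocorticoid-induced chaperone gene: its log2 difference from vehicle was 4.54 with CVZ, 3.87 with COR and 2.69 with ALD. In experiment 2 the Fkbp5 signal was 43.8 with CVZ alone and 4.25 with CVZ after RU486. Cardiomyocyte markers summed to a signal between 1760 and 2260 on the 12 arrays, so the labelled cell type was present. Fibroblast markers summed to 363 to 443 on the arrays of experiment 1 and to 193 to 202 on the arrays of experiment 2 without RU486. Before division by the median, the array medians had been 35.4 to 37.7 with RU486, 22.4 to 33.7 on the partner arrays and 21.1 to 25.5 in experiment 1, if the original signals had steps of 0.1.

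**Figure D1:**
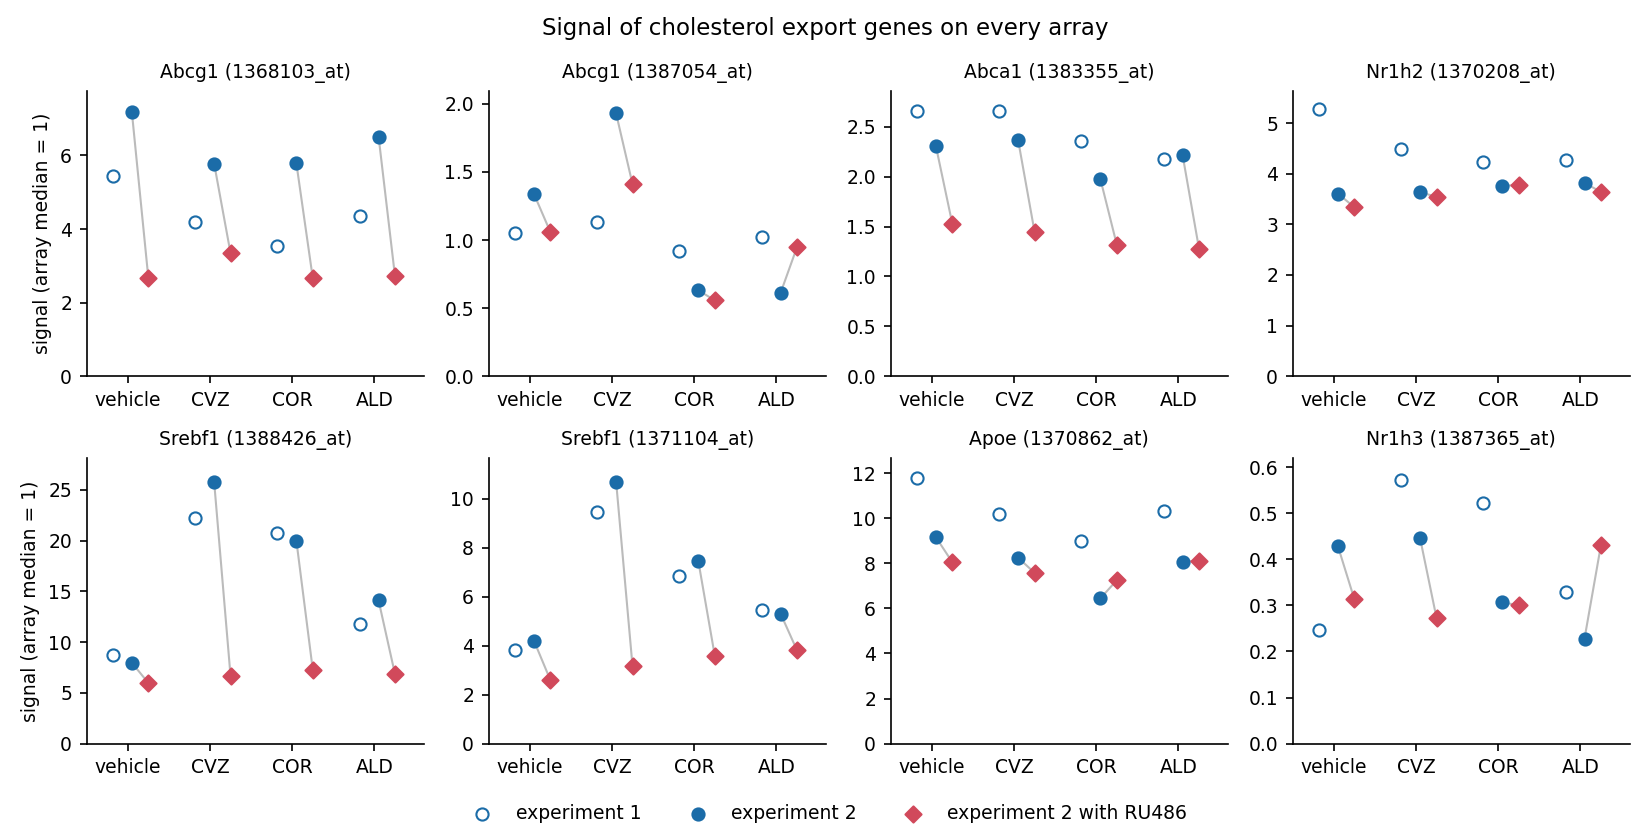
Signal in units of the array median (vertical axes, from 0, each panel on its own scale) for 8 probe sets of the 6 genes in each of the 12 arrays, by treatment. Open circles are experiment 1, filled circles experiment 2, diamonds experiment 2 with RU486, and lines join partners; Abcg1 (1368103_at), Abca1 and both Srebf1 panels have every diamond below every filled circle.

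On its brightest probe set Abcg1 was lower on every array with RU486 than on any array without it, which its other probe sets did not repeat. The ligands alone did not move Abcg1 past the threshold. Abcg1 lies on chr20:9128056-9184312 (RefSeq, GRCr8). Its brightest probe set, 1368103_at, read 5.44 with vehicle, 4.20 with CVZ, 3.53 with COR and 4.36 with ALD in experiment 1. In experiment 2 it read 7.17 with vehicle, 5.78 with CVZ, 5.79 with COR and 6.51 with ALD. With RU486 it read 2.67 after vehicle, 3.34 after CVZ, 2.66 after COR and 2.71 after ALD. The highest of the RU486 arrays thus lay below the lowest of the 8 arrays without RU486, and the vehicle array of experiment 2 was the highest of all.

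The log2 difference of Abcg1 from the partner array was -1.40 in vehicle, -0.78 in CVZ, -1.10 in COR and -1.24 in ALD. The mean was -1.13 ± 0.27 (SD, n = 4 pairs), a level 2.19-fold lower. Over all tested probe sets the mean difference had a median of 0.014, and 0.145% of them had a lower mean than Abcg1. These values were taken to have chosen the gene and support nothing further. Of the 7 tested probe sets of the set, 4 were below 0 in all 4 pairs, against 9.13% of all tested probe sets. The same 4 probe sets had all RU486 arrays below all partner arrays, which held for 3.6% of all tested probe sets. None was at least 2-fold lower in each of the 4 pairs, and the share of all tested probe sets that were was 0%.

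**Figure D2:**
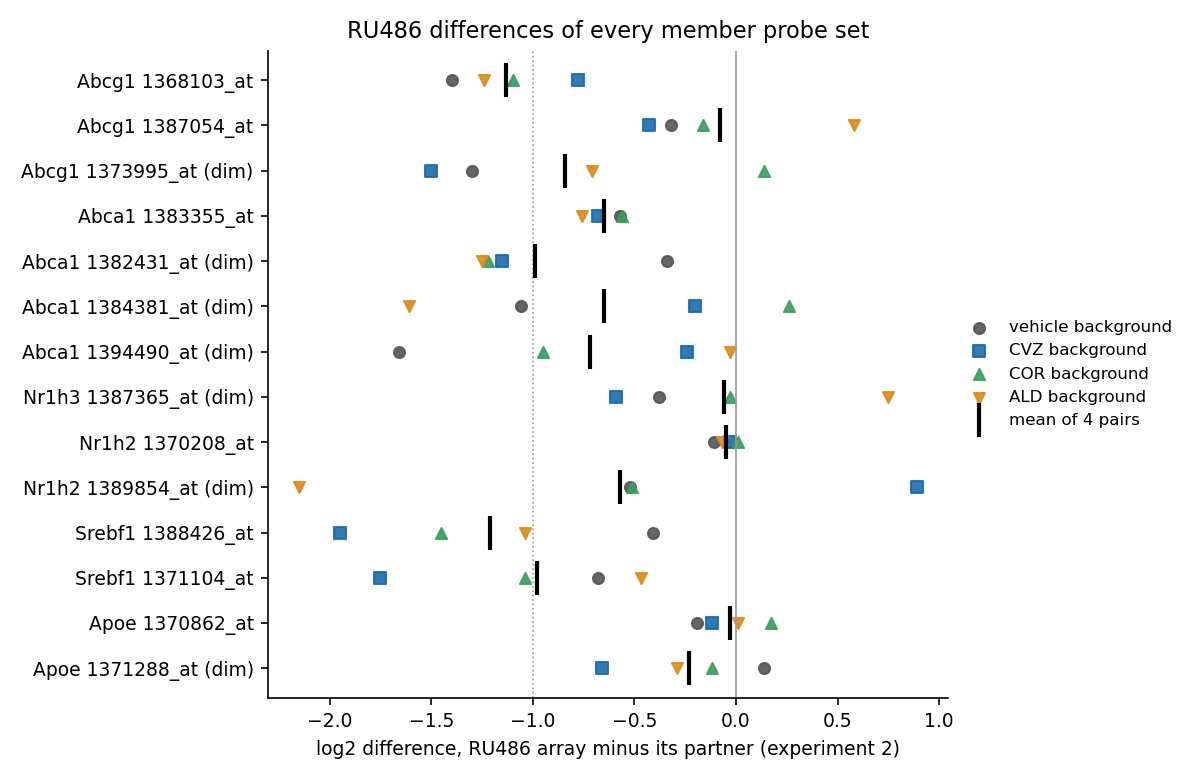
Log2 difference of each RU486 array from its partner array (horizontal axis) for the 14 probe sets of the 6 genes, with 1 symbol for each of the 4 pairs and a bar at their mean; the dotted line marks a 2-fold lower level, and dim means below the filter. Abcg1 1368103_at and Srebf1 1388426_at have means of -1.13 and -1.21, whereas Nr1h2 1370208_at and Apoe 1370862_at lie near 0.

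Some cell type markers were lower on the RU486 arrays as well. The counts below 0 in all 4 pairs stand beside a share of 9.13% over all tested probe sets, and some of these falls were small. Of 6 tested smooth muscle markers 5 were below 0 in all 4 pairs. The summed signal of that list was 20.2 to 24.3 with RU486 against 26.2 to 31.4 on the partners. The contractile genes Tagln and Myh11 had mean differences of -0.50 and -0.39, and Pdgfrb of the same list had 0.15. Of 9 tested macrophage markers 3 were below 0 in all pairs (Cd14, C1qa and Tyrobp), with sums of 15.7 to 20.3 against 19.0 to 21.2. The counts were 4 of 9 for fibroblasts (175 to 189 against 193 to 202), 5 of 9 for cardiomyocytes (1760 to 1990 against 1950 to 2190), 0 of 5 for endothelium (8.36 to 10.1 against 8.44 to 12) and 0 of 1 for glia (0.802 to 1.26 against 1.02 to 1.48). The other tested macrophage markers had mean differences of 0.40 (Aif1), 0.20 (Ptprc), 0.06 (Cd68), 0.0 (Csf1r), -0.16 (Lyz2) and -0.37 (Mrc1). No marker had a signal of 0, although the macrophage markers Adgre1, Cd163 and C1qb did not pass the filter. The part of these cells, and that of the higher array medians, in the lower Abcg1, Abca1 and Srebf1 signals was not tested. In whole cultures fewer cells of a type and less RNA per cell cannot be told apart.

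Without RU486 the Abcg1 means were in the order vehicle (6.31 ± 1.22), ALD (5.43 ± 1.52), CVZ (4.99 ± 1.11) and COR (4.66 ± 1.6; SD, n = 2 each). No neighbours in that order differed by more than their SD. Much of that spread lay between the experiments, because Abcg1 was higher in experiment 2 by 0.53 ± 0.14 on the log2 scale in 4 of 4 treatments (SD, n = 4). Within an experiment every ligand array was below its vehicle array. The differences were -0.37 and -0.31 with CVZ, -0.62 and -0.31 with COR and -0.32 and -0.14 with ALD, in experiments 1 and 2 respectively. In limma with the experiment as a block none passed: CVZ -0.34 (95% interval -0.67 to -0.01, adjusted p = 0.26), COR -0.46 (-0.79 to -0.13, adjusted p = 0.16) and ALD -0.23 (-0.56 to 0.10, adjusted p = 0.75). The 3 comparisons share the vehicle arrays. Between ligands the Abcg1 differences were -0.12 for COR against CVZ (-0.45 to 0.21), 0.11 for ALD against CVZ (-0.22 to 0.44) and 0.23 for ALD against COR (-0.10 to 0.56), with limma adjusted p of 0.90, 0.85 and 0.98. With RU486 present the ligand arrays differed from the RU486 array by 0.32 (CVZ), 0.00 (COR) and 0.02 (ALD), from single arrays.

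The other Abcg1 probe sets did not repeat the pattern of 1368103_at. Probe set 1387054_at passed the filter with signals of 0.557 to 1.93 over the 12 arrays. Its RU486 differences were -0.32, -0.43, -0.16 and 0.58 in vehicle, CVZ, COR and ALD, with a mean of -0.08 ± 0.46 (SD, n = 4), and the arrays with and without RU486 overlapped. It was the noisier of the pair, with a standard error of 0.38 against 0.16 for 1368103_at in each limma comparison, and it passed none. The dim probe set 1373995_at read 0.101 to 1.21, with a mean RU486 difference of -0.84 ± 0.73 that was positive in COR. The statements on Abcg1 therefore rest on 1368103_at.

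Likeness to Abcg1 was measured over the 12 arrays among all tested probe sets with 1 gene symbol. By Pearson correlation of log2 values with 1368103_at, the highest were Marveld1 (0.869), Eftud2 (0.834), Fbf1, Amn and Fah (0.831 each) and Tmem101 (0.821). Marveld1, which encodes a MARVEL-domain membrane protein, read 8.84 to 9.99 with RU486, 11.4 to 12.7 on the partners and 11.1 to 12.3 in experiment 1. Fah, the last enzyme of tyrosine breakdown, read 0.541 to 0.671, 0.769 to 1.06 and 0.607 to 1.02 in the same groups. The lowest correlations were those of Ppp1r15a (-0.942), Dnajb9 (-0.937) and Ctdspl2 (-0.886). Ppp1r15a, a phosphatase subunit of the stress response, read 4.61 to 5.19 with RU486, 2.95 to 3.41 on the partners and 3.51 to 4.28 in experiment 1. Dnajb9, a chaperone of the endoplasmic reticulum, read 15.2 to 17.1, 8.02 to 11.7 and 11.4 to 15.9, so its RU486 arrays lay above the partners but overlapped experiment 1. These 12 arrays share experiment and RU486 treatment, and the genes were picked from all tested probe sets as the extremes, so the correlations are a description.

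Abca1 was lower with RU486 in every pair, by less than Abcg1, and the ligands did not change it past the threshold. It lies on chr5:72473676-72596563. Its tested probe set, 1383355_at, read 2.66, 2.66, 2.36 and 2.18 with vehicle, CVZ, COR and ALD in experiment 1 and 2.31, 2.37, 1.98 and 2.22 in experiment 2. With RU486 it read 1.53, 1.45, 1.32 and 1.28. All RU486 arrays lay below all 8 others. The differences from the partners were -0.57, -0.68, -0.56 and -0.76, with a mean of -0.65 ± 0.10 (SD, n = 4), a level 1.56-fold lower and closely alike in the 4 pairs. A lower mean was found in 1.2% of tested probe sets. Abca1 did not differ from vehicle past the threshold with CVZ (0.02, interval -0.43 to 0.47, limma adjusted p = 0.98), COR (-0.19, -0.64 to 0.26, adjusted p = 0.81) or ALD (-0.17, -0.62 to 0.29, adjusted p = 0.90). These intervals reached down to -0.64 and up to 0.47, so a moderate change was not excluded by these arrays.

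Of the 3 dim Abca1 probe sets, 1382431_at had differences of -0.34, -1.15, -1.22 and -1.25 with no overlap between RU486 arrays (0.302 to 0.427) and partners (0.559 to 0.902). On experiment 1 it ranged from 0.165 to 0.956, so the RU486 arrays did not lie below those. The other dim probe sets, 1384381_at and 1394490_at, had means of -0.65 ± 0.84 and -0.72 ± 0.74 and overlapped. In COR 1384381_at was higher with RU486, by 0.26. Over the 12 arrays the log2 values of Abcg1 and Abca1 had a Pearson r of 0.75, and those of Abca1 and Srebf1 0.68, as descriptions over arrays that share their treatment.

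RefSeq promoter windows (GRCr8, from 250 bases before to 50 after a start) were given for 5 of the 6 genes, 8 windows in all; Abcg1 had none. Abca1 and Srebf1 are shown because both were lower with RU486 and because, among 24 pairs of windows of different genes, theirs shared the longest stretch, 13 bases against 11 for the next and 7 for the shortest. The stretch, TAGTAACCCCGGC, occurred in 2 of 33469 windows (0.00598%), these 2 alone, on either strand. It was sought as the longest match, so its rarity is a description and no test. In Abca1 it ran from 63 to 51 bases before the start, and in window 2 of Srebf1 from 202 to 190 bases before. The sequences below hold the 250 bases before each start, 5′ to 3′ on the minus strand, Abca1 from chr5:72596474-72596723 and Srebf1 from chr10:45519011-45519260. Capitals mark the shared stretch and AGAACA, the hexamer of glucocorticoid response elements.
Abca1: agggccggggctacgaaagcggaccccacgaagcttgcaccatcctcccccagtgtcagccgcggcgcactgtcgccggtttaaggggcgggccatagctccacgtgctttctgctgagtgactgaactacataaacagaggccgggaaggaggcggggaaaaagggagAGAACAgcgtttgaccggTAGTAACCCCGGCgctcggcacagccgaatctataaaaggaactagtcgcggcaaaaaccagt
Srebf1: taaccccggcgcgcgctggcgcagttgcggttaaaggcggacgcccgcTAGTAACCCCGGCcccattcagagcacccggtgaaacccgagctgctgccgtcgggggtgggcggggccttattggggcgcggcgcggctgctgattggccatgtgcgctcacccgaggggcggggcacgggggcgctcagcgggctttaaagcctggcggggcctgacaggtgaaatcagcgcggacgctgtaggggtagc
AGAACA, read on both strands, was in 20.7% of all windows. The Abca1 window held 1 copy, its first base 81 bases before the start, and the other 7 windows of these genes held none. AGGTCA, the hexamer that liver X receptors bind in repeats, was in 16.2% of all windows and in none of the 8. A hexamer at these shares is found in many promoters, and its absence says only that these letters are not in the window. Only exact letters were sought, so a receptor site with other letters would have been missed. Whether the shared stretch is part of such a site was not tested.

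Nr1h2, which encodes LXRβ, lies on chr1:104178483-104183863, did not pass the threshold in any comparison. Its tested probe set, 1370208_at, read 5.28, 4.49, 4.23 and 4.27 with vehicle, CVZ, COR and ALD in experiment 1 and 3.61, 3.63, 3.76 and 3.82 in experiment 2. With RU486 it read 3.34, 3.55, 3.78 and 3.64, inside or just below the range of the partners. The mean RU486 difference was -0.05 ± 0.05 (SD, n = 4). Against vehicle the Nr1h2 differences were -0.11 with CVZ, -0.13 with COR and -0.11 with ALD, with limma adjusted p of 0.80, 0.83 and 0.91. The interval for COR ran from -0.48 to 0.22, and those for CVZ and ALD from -0.46 to 0.24. Nr1h2 was lower in experiment 2 than in experiment 1 in all 4 treatments, by a mean of -0.29 ± 0.18 (SD, n = 4), opposite in sign to Abcg1. A dim Nr1h2 probe set, 1389854_at, was below the pseudocount on 9 of 12 arrays.

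Nr1h3, which encodes LXRα and lies on chr3:97614616-97632053, had low signals, although none was below the pseudocount. Its only probe set, 1387365_at, did not pass the filter. It read 0.247, 0.573, 0.522 and 0.328 in experiment 1, 0.429, 0.446, 0.307 and 0.228 in experiment 2 and 0.314, 0.273, 0.3 and 0.431 with RU486, for vehicle, CVZ, COR and ALD. CVZ and COR were above vehicle in experiment 1 (1.02 and 0.90 on the log2 scale), but in experiment 2 CVZ was level (0.05) and COR below (-0.41). The RU486 differences averaged -0.06 ± 0.59 (SD, n = 4), and at these signals no order of the treatments could be read.

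Srebf1 was the only gene of the set that the ligands called: it rose with CVZ and COR on both of its probe sets and with ALD on 1. It lies on chr10:45507152-45529164. Probe set 1388426_at read 8.73 with vehicle, 22.2 with CVZ, 20.7 with COR and 11.8 with ALD in experiment 1. In experiment 2 it read 7.96, 25.8, 20.0 and 14.1 in the same order. Every ligand array was above both vehicle arrays, and the order CVZ, COR, ALD, vehicle held in each experiment. Probe set 1371104_at read 3.84, 9.47, 6.84 and 5.44 in experiment 1 and 4.21, 10.7, 7.45 and 5.31 in experiment 2, with the same order.

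On 1388426_at the Srebf1 level was 2.86-fold higher with CVZ (1.52 ± 0.12 on the log2 scale, SE, limma adjusted p = 4.7e-07). It was 2.43-fold higher with COR (1.28 ± 0.12, adjusted p = 7.6e-06) and 1.55-fold higher with ALD (0.63 ± 0.12, adjusted p = 0.018). On 1371104_at the differences were 1.31 ± 0.14 with CVZ (limma adjusted p = 1.2e-05), 0.82 ± 0.14 with COR (adjusted p = 0.0027) and 0.41 ± 0.14 with ALD, which did not pass (adjusted p = 0.32). All probe sets called among the 7 tested were thus those of Srebf1: 2 with CVZ, against 7.96% of all tested probe sets called and 4.77% called higher, 2 with COR (3.39% and 2.44%), and 1 with ALD (0.95% and 0.87%). At an unadjusted p below 0.05 the counts were 3, 4 and 2 of 7. Without vehicle replicate 2 or ALD replicate 2 the ALD call was lost, at 0.49 (adjusted p = 0.21) and 0.51 (adjusted p = 0.24). Without COR replicate 2 the COR call on 1371104_at was lost (0.80, limma adjusted p = 0.052), and without the experiment as a block both COR calls and the ALD call were lost (limma adjusted p = 0.055, 0.29 and 1).

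Between ligands, Srebf1 was lower with ALD than with CVZ, by -0.89 on 1388426_at (95% interval -1.15 to -0.62, limma adjusted p = 0.00034) and by -0.90 on 1371104_at (-1.20 to -0.59, adjusted p = 0.0011). These were the 2 members called in that comparison, in which 4.25% of all tested probe sets were called and 2.62% were called lower. Both calls were lost without the experiment as a block (limma adjusted p = 0.24 and 0.25) and without the mean-variance trend (0.09 and 0.062). Over all tested probe sets that comparison then called 18 and 78, against 792 in the main fit. ALD was also lower than COR on 1388426_at (-0.65, -0.92 to -0.39, limma adjusted p = 0.037), where 0.263% of all tested probe sets were called lower, but 1371104_at did not pass (-0.40, -0.71 to -0.10, adjusted p = 0.54). The ALD against COR call was lost when any 1 of the 4 arrays of COR and ALD was left out. COR against CVZ gave no member by limma, with 3 of 7 at an unadjusted p below 0.05 and 0.966% of all tested probe sets called. There the Srebf1 differences were -0.23 (-0.50 to 0.03, adjusted p = 0.62) and -0.50 (-0.80 to -0.19, adjusted p = 0.16), so these arrays did not settle whether Srebf1 differed between COR and CVZ.

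**Figure D3:**
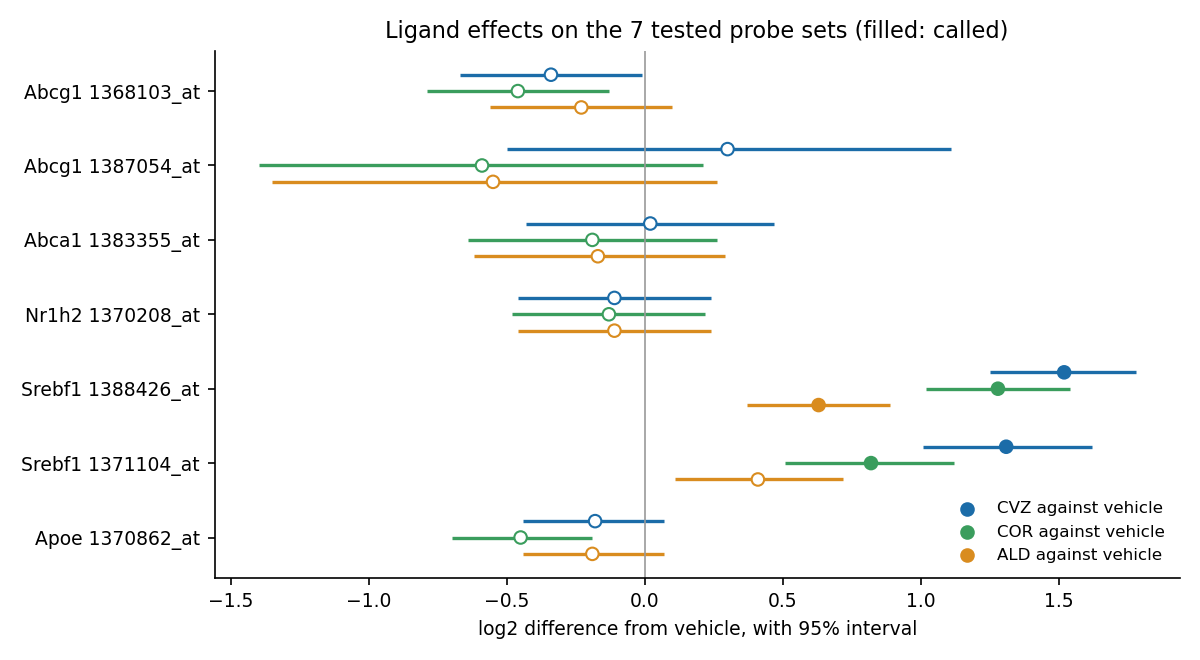
Log2 difference from vehicle (horizontal axis) with its 95% interval for the 7 tested probe sets, by ligand, from limma over both experiments; filled points passed an adjusted p of 0.05. Only Srebf1 points are filled, from 1.52 for CVZ on 1388426_at down to 0.63 for ALD.

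With RU486, Srebf1 1388426_at read 5.98 after vehicle, 6.63 after CVZ, 7.26 after COR and 6.83 after ALD, all below both vehicle arrays. Probe set 1371104_at read 2.60, 3.15, 3.59 and 3.81, also below both vehicle arrays (3.84 and 4.21). The differences from the partners on 1388426_at were -0.41 in vehicle, -1.95 in CVZ, -1.45 in COR and -1.04 in ALD, a mean of -1.21 ± 0.65 (SD, n = 4), and 0.118% of tested probe sets had a lower mean. On 1371104_at they were -0.68, -1.75, -1.04 and -0.47, a mean of -0.98 ± 0.56 (SD, n = 4; 0.247%). On both probe sets the Srebf1 difference was largest in CVZ, whereas that of Abcg1 was largest in vehicle and smallest in CVZ.

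The same values can be read as ligand responses in experiment 2. On 1388426_at the response without and with RU486 was 1.69 and 0.15 for CVZ, 1.32 and 0.28 for COR and 0.82 and 0.19 for ALD. On 1371104_at it was 1.34 and 0.27 for CVZ and 0.81 and 0.46 for COR. For ALD 1371104_at gave 0.33 without and 0.54 with RU486, the other way round. Each response comes from 1 array against 1 array, shares the RU486 arrays with the rule and was not tested. In experiment 1, which the RU486 differences did not use, the responses to CVZ, COR and ALD had been 1.34, 1.24 and 0.44 on 1388426_at and 1.29, 0.82 and 0.50 on 1371104_at, all above 0 and with no replicate of their own.

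**Figure D4:**
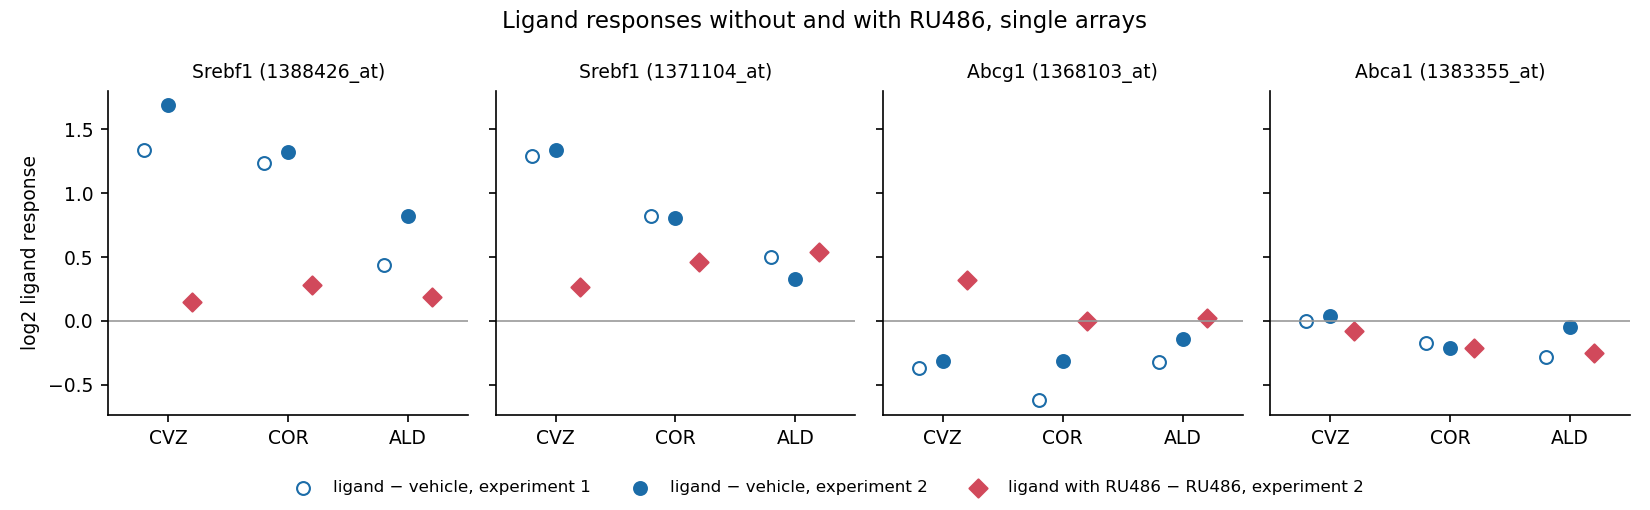
Log2 difference of a ligand array from vehicle (circles, experiments 1 and 2) and of a ligand array with RU486 from the RU486 array (diamonds), for 4 probe sets; each point is 1 array minus another. Srebf1 1388426_at has circles from 0.44 to 1.69 and diamonds from 0.15 to 0.28, and Abca1 has both near 0.

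Apoe, the acceptor, did not differ past the threshold in any comparison, and RU486 left it near its partners. It lies on chr1:88481889-88485816. Probe set 1370862_at read 11.8, 10.2, 9.0 and 10.3 with vehicle, CVZ, COR and ALD in experiment 1, 9.16, 8.25, 6.44 and 8.06 in experiment 2 and 8.05, 7.58, 7.25 and 8.12 with RU486. Within each experiment vehicle was the highest and COR the lowest. The COR difference was -0.45 ± 0.12 (SE, 95% interval -0.70 to -0.19, limma adjusted p = 0.056). The COR difference passed under 3 of 16 alternatives: at 0.037 with a stricter filter and at 0.023 with quantile normalization or trimmed-mean scaling. Under the other 13 it did not pass, among them the fits without the block and without the mean-variance trend (limma adjusted p = 0.25 for the latter). Leaving out 1 vehicle or COR array gave -0.52 to -0.38. With CVZ and ALD the differences were -0.18 and -0.19, with limma adjusted p of 0.48 and 0.72. The RU486 differences were -0.19, -0.12, 0.17 and 0.01, a mean of -0.03 ± 0.16 (SD, n = 4). Apoe was lower in experiment 2 by a mean of -0.38 ± 0.07 (SD, n = 4), and the fibroblast marker sums given above were also lower there. Other marker sums were lower in experiment 2 as well: smooth muscle 26.2 to 31.4 against 44.0 to 50.3 in experiment 1, macrophage 19.0 to 21.2 against 22.3 to 27.1 and endothelial 8.44 to 12 against 13.6 to 18.7. Cardiomyocyte sums (1950 to 2190 against 2100 to 2260) and glial sums (1.02 to 1.48 against 0.789 to 1.66) overlapped between the experiments. The part of any of these cells in the lower Apoe was not tested. The other Apoe probe set, 1371288_at, was below the pseudocount on 11 of 12 arrays.

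Around these genes, 72 further genes of sterol handling were listed in 6 groups; 62 had a probe set named and 46 passed the filter. CVZ called 4 of the 46 (1 higher and 3 lower, 8.70%), COR 2 (1 and 1, 4.35%) and ALD 1 (1 higher, 2.17%), shares near those over all tested probe sets. Their median differences were -0.04, 0.08 and 0.01, against 0.007, 0.007 and 0.018 over all tested probe sets. ALD was higher than CVZ in 3 (6.52% of 46, against 1.63% of all tested probe sets) and COR higher than CVZ in 1 (2.17%, against 0.311%). ALD against COR called 0 of the 46 by limma, where 0.295% of all tested probe sets were called. At an unadjusted p below 0.05 there were 3 of the 46, and the share of all tested probe sets at that p was not counted.

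Ppargc1a, a coactivator that partners many nuclear receptors, rose with all 3 ligands. It read 11.1, 20.8, 23.2 and 15.8 with vehicle, CVZ, COR and ALD in experiment 1 and 11.5, 22.5, 22.3 and 17.9 in experiment 2. Its log2 differences were 0.93, 1.00 and 0.57 (SE 0.10 each, limma adjusted p = 1.4e-05, 1.3e-05 and 0.011). Rxrg, an RXR partner of the liver X receptors, fell with CVZ by 0.79 (SE 0.16, limma adjusted p = 0.0035), from 7.54 to 5.03 in experiment 1 and from 10.4 to 5.17 in experiment 2. It was higher with ALD than with CVZ by 0.60 (limma adjusted p = 0.041). Osbp, which carries sterols from the endoplasmic reticulum to the Golgi, fell with CVZ by 0.45 and with COR by 0.44 (limma adjusted p = 0.010 and 0.020). It read 26.4, 18.5 and 18.7 with vehicle, CVZ and COR in experiment 1 and 19.2, 14.7 and 14.6 in experiment 2.

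In the group around SREBP-2, the factor of cholesterol synthesis, 8 genes were tested. Idi1, an enzyme of isoprenoid synthesis, fell with CVZ by 0.39 (limma adjusted p = 0.011), from 40.2 to 31.3 in experiment 1 and from 20.5 to 15.3 in experiment 2. It was higher with ALD than with CVZ by 0.37 (limma adjusted p = 0.026). Insig1, which retains the SREBP complex in the endoplasmic reticulum, was higher than with CVZ by 0.54 with COR and by 0.49 with ALD (limma adjusted p = 0.034 and 0.021). It read 17.7 and 14.5 with CVZ, 28.6 and 19.0 with COR and 28.1 and 18.1 with ALD, in experiments 1 and 2.

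Of the other targets of the liver X receptors, 7 were tested (among them Scd, Fasn, Lpcat3 and Lpl) and no ligand comparison called any by limma. At an unadjusted p below 0.05 there was 1 in CVZ against vehicle, 1 in ALD against CVZ and 0 in the other comparisons. The share of all tested probe sets at that p was not counted. Fasn, the fatty acid synthase, read 18.1, 15.0, 13.5 and 17.5 in experiment 2 and 14.8, 17.9, 13.5 and 13.6 with RU486, so the arrays overlapped. Scd, a fatty acid desaturase, read 2.54, 2.08, 2.31 and 2.63 and then 2.75, 1.82, 2.07 and 2.06, again with overlap. In the RU486 differences the 46 genes had means from -0.34 to 0.63 with a median of 0.01, and 4 were below 0 in all 4 pairs (8.70%, against 9.13% of all tested probe sets). No gene of the 6 groups was at least 2-fold lower or higher in all 4 pairs.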

How the data were processed

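RNA from 12 cultures (8 groups) was hybridised to Affymetrix rat arrays. The intensity values are linear as deposited, made with MAS5 per the submitters' processing notes. Every deposited array had a median of 1, which points to division by its own median before deposit. Of 31099 probe sets, 57 controls were set aside. Array annotation with current rat symbols named 20826 probe sets with 1 gene, 436 with several and 9780 with none.

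The pseudocount was the 10th percentile of all values (0.0696). A filter at the 40th percentile of mean log2 values (0.63 as a signal plus pseudocount) left the probe sets that were tested with limma 3.58.1 in R 4.3.3 (mean-variance trend, Benjamini-Hochberg over 18625 probe sets, 3 residual and 12.2 prior degrees of freedom) over all 12 arrays with experiment as a block; RU486 groups of 1 array leave no residual there. The titles give the experiment number. Same-numbered arrays deviated together (correlations of 0.512 to 0.567 for the 6 treatment pairs), so the numbers pair them. Replicates correlated at 0.946 to 0.950, and none were identical.

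Members and lists were chosen with earlier results of these data known. Named genes were all member probe sets, listed genes called in a ligand comparison (1 probe set a gene, the brightest), the 6 genes most and 3 least correlated with Abcg1, and Fkbp5 as a check; Fasn, Scd and the markers were named after their values were seen. Pseudocount, filter, normalization, trend, block and left-out arrays were varied. The fit was tested on simulated data.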

Additional observations from a re-analysis of the deposited data

Results flagged for a closer look

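The Srebf1 response differed between ligands by a test of the difference itself. ALD was below CVZ by -0.89 on probe set 1388426_at and by -0.90 on 1371104_at, and below COR by -0.65 on 1388426_at (limma, adjusted p = 0.00034, 0.0011 and 0.037). ALD against COR did not pass on 1371104_at (-0.40, limma adjusted p = 0.54), and its call on 1388426_at was lost under 7 of 16 alternatives. Both ALD against CVZ calls were lost without the block (limma adjusted p = 0.24 and 0.25) and without the trend (0.09 and 0.062). All tested probe sets then gave 18 and 78 calls in that comparison, against 792 in the main fit. The vehicle arrays cancel in these differences, the ligand doses are not given in the sources used here, and the values per array stand in the results above. No cause was tested.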

How the results depend on the processing

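With 2 arrays a group and 3 residual degrees of freedom, calls near the threshold depended on the fit. CVZ against vehicle called 2 members (both Srebf1) under all 16 alternatives, and COR against CVZ called 0 under all. Without the replicate block, members called fell to 0 for COR against vehicle, ALD against vehicle, ALD against CVZ and ALD against COR, while the log2 values were the same: Srebf1 with COR was 1.28 (limma adjusted p = 0.055) and 0.82 (0.29), with ALD 0.63 (adjusted p = 1), and ALD against CVZ -0.89 (0.24) and -0.90 (0.25). Over all tested probe sets the calls without the block fell too: from 632 to 41 for COR and from 177 to 13 for ALD against vehicle. They fell from 792 to 18 for ALD against CVZ and from 55 to 0 for ALD against COR. Without the mean-variance trend the member counts were 1 for COR and 0 for ALD against vehicle, 0 for ALD against CVZ and 0 for ALD against COR. All tested probe sets then gave 117, 15, 78 and 0 calls in the same order. Without a filter ALD against COR called 0 members, and 21 of all 31042 probe sets. Leaving out each array in turn gave 1 to 2 for COR (1 without COR replicate 2), 0 to 1 for ALD (0 without vehicle replicate 2 or ALD replicate 2), 2 for ALD against CVZ and 0 to 1 for ALD against COR (0 without any 1 array of COR or ALD). The Abcg1 RU486 difference of -1.13 was -1.25 to -1.04 leaving out a pair and -1.19 to -1.08 with other pseudocounts and scalings. No member's call changed sign. Apart from smaller samples, the cause of lost calls was not tested. Signals near the pseudocount limit what Nr1h3 and the dim probe sets can show.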
